A study of Homo sapiens with 73 samples.

Results

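Interferon-stimulated genes are the genes that cells switch on when interferon reaches them. A list of 39 well-known ones was taken by symbol and followed here among the 36233 genes of 73 RNA libraries, and all 39 symbols were found. Every library came from CHLA-9, an established line of Ewing sarcoma with an EWSR1-FLI1 fusion gene. The parental line gave 1 untreated library (time 0), and 10 cultures started from that line were kept apart as lineages. Lineages R1 to R7 took VDC (a mix of doxorubicin, vincristine and cyclophosphamide) at odd time points and EC (cyclophosphamide with etoposide) at even ones, over 10 time points in 5 cycles. Each exposure lasted 5 days at a concentration giving 70% effect, and the cells regrew without drug before RNA was taken, so the libraries describe regrown cultures and not cells under drug. Lineages R8 to R10 received DMSO, the solvent, on the same calendar. The treated arm holds 49 libraries and the DMSO arm 23. Treated groups run from 3 libraries at time points 9 and 10 to 7 at time points 4 and 5. There is no treated library at time point 2, after the first EC course, and no DMSO library at time point 3. In the DMSO arm 1 library (R8) stands for time point 7, and 2 each for time points 4 and 10. A DMSO median there is that single library or the mean of 2.

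Type I interferons bind a receptor whose kinases, JAK1 and TYK2, activate transcription factors, STAT2 among them. STAT2 acts with IRF9 in a complex that binds the interferon-stimulated response element (ISRE) near its target genes. The targets include sensors of foreign RNA, enzymes that degrade viral RNA or block its translation, membrane proteins that hold back virus particles, and regulators that feed back on the pathway. Many of them keep a basal level in tumour lines without added interferon.

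Values are the authors' quantile-normalized counts, which leaves sequencing depth unknown, and no counting interval can be given. Between 13214 and 16107 genes per library sat at that library's lowest value. For tests, values were taken as log2(value + 1), which understates changes of low genes, and a mean of 10 or more was required. This kept 14565 genes, 33 of the 39 members among them. Ewing sarcoma markers were present (9 of 10 kept, summed value 43800 to 92970 in treated and 71310 to 96030 in DMSO libraries). Blood cell markers summed to at most 75.97 in treated and 60.95 in DMSO libraries, with 1 of 8 kept, and 0 of 4 endothelial markers were kept. Epithelial markers summed to 6.19 to 713 in treated and 7.71 to 1390 in DMSO libraries. All lineages descend from 1 line, so p-values of slopes and of arm levels over all time points measure the spread between 7 and 3 cultures. Those at single time points come from 1 fit of 72 libraries, and those of the last course from libraries with lineage as a block. Both measure the spread between libraries, many of which are repeated samples of 1 culture. Bulk RNA cannot separate fewer cells with a transcript from less transcript per cell.

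Several libraries stood apart from their labels in their correlation with the other libraries over 2000 variable genes. The DMSO library of R8 at time point 1 was nearest to a treated one (R6 at time point 1, r = 0.83). The treated libraries of R1 at time points 3 and 6 were nearest to DMSO ones (R9 at time point 2, r = 0.86, and R10 at time point 5, r = 0.87). R1 at time point 1 was nearest to the parental library (r = 0.60). Without the first 3 of these libraries the number of members called in each comparison was the same as with them, 16 for the treated slopes and 0 elsewhere.

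The members spanned a wide range of basal levels, compared here per kilobase of exon (GENCODE v29, GRCh38). The highest median values per kilobase were those of EIF2AK2, the kinase PKR that halts translation on double-stranded RNA (286.9), and of STAT2, the signal transducer itself (271.7). OAS3, which makes oligoadenylates on double-stranded RNA, followed at 183.7, then the mono-ADP-ribosyltransferase PARP14 at 119.2 and the ubiquitin ligase TRIM22 at 112.5. Of the members often used as markers of an interferon response, some were far lower. IFIT1, which binds foreign RNA caps, stood at 5.42 per kilobase, as did RIGI, an RNA sensor. MX1, a GTPase that traps viral particles, stood at 0.67. Not all such markers were this low: ISG15 had 54.0 and RSAD2 251.6 in the parental library against 33.3 for IFIT1, not divided by length. MX1 was among the 6 members below the minimum mean, with IFI27, MX2, OASL, HERC5 and HERC6. OASL sat at its library's lowest value in 62 of 73 libraries, HERC6 in 37, MX2 in 36, HERC5 in 7 and MX1 in 6. Exons of 14 members overlap another gene, 10 of them a gene on the opposite strand, and whether the counting used strand is not given in the sources used here. IFITM1 and IFITM2 overlap on the same strand, so the split of reads between them is uncertain.

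RefSeq promoter windows (GRCh38.p14, 300 bases, 250 before to 50 after the start) matched 31 members. The core of the ISRE, GAAA, any 2 bases and GAAA again on either strand, was found in 22 of the 31 (71.0%) and in 1195 of 27305 genes with a window (4.38%). At least 2 such cores, overlapping ones included, were present in 14 members and in 85 of all genes. The gamma-activated core TTCNNNGAA, which reads the same on both strands, was present in 10 members (32.3%) against 9.38% of all genes. Members with a window were then split by the direction of their slopes in treated lineages. An ISRE core was held by 7 of 8 that rose, 3 of 3 that fell and 9 of 16 without a call. It was also held by 3 of 4 below the minimum mean. OAS2, TRIM22, USP18 and IRF7 fell as well but had no window. The windows shown belong to members on which the results turn: BST2, DDX60, IFIT5, ISG15 and SAMD9L rose and RSAD2 fell. ISRE cores are in capitals, and the SAMD9L window holds none.
BST2 (chr19:17405581-17405880, minus strand): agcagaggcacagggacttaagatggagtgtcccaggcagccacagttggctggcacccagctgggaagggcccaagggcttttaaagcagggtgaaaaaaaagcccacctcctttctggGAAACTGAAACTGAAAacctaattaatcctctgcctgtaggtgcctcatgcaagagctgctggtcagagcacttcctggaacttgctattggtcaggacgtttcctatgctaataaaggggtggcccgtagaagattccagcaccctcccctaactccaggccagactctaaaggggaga
DDX60 (chr4:168318703-168319002, minus strand): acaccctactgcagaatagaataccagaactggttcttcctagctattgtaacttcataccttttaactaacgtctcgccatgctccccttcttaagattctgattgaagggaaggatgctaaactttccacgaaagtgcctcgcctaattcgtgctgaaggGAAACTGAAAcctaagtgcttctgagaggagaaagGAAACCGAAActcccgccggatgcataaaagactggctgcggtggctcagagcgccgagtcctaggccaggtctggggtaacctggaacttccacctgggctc
IFIT5 (chr10:89414318-89414617, plus strand): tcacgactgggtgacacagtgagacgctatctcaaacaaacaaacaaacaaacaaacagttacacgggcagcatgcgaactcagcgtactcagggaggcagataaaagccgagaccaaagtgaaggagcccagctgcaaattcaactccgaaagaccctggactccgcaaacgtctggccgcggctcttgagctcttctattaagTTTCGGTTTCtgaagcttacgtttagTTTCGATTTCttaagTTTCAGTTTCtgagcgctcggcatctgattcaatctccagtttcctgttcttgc
ISG15 (chr1:1013247-1013546, plus strand): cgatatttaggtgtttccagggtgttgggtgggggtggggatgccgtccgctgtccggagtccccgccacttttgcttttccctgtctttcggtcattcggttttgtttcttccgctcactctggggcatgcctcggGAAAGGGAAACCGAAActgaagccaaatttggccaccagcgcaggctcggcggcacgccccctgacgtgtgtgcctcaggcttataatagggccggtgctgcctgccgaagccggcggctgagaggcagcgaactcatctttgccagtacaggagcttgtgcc
SAMD9L (chr7:93148336-93148635, minus strand): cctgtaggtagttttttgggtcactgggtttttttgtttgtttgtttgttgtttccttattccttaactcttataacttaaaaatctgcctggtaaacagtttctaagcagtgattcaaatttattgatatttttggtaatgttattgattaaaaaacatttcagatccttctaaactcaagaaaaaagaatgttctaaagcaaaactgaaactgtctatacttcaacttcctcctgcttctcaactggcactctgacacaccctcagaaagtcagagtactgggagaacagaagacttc
RSAD2 (chr2:6877527-6877826, plus strand): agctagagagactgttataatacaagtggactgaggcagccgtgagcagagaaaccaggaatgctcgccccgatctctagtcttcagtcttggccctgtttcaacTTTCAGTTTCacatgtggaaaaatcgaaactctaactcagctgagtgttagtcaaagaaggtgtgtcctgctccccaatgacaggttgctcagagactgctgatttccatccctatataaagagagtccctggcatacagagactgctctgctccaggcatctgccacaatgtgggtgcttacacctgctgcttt

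**Figure D1:**
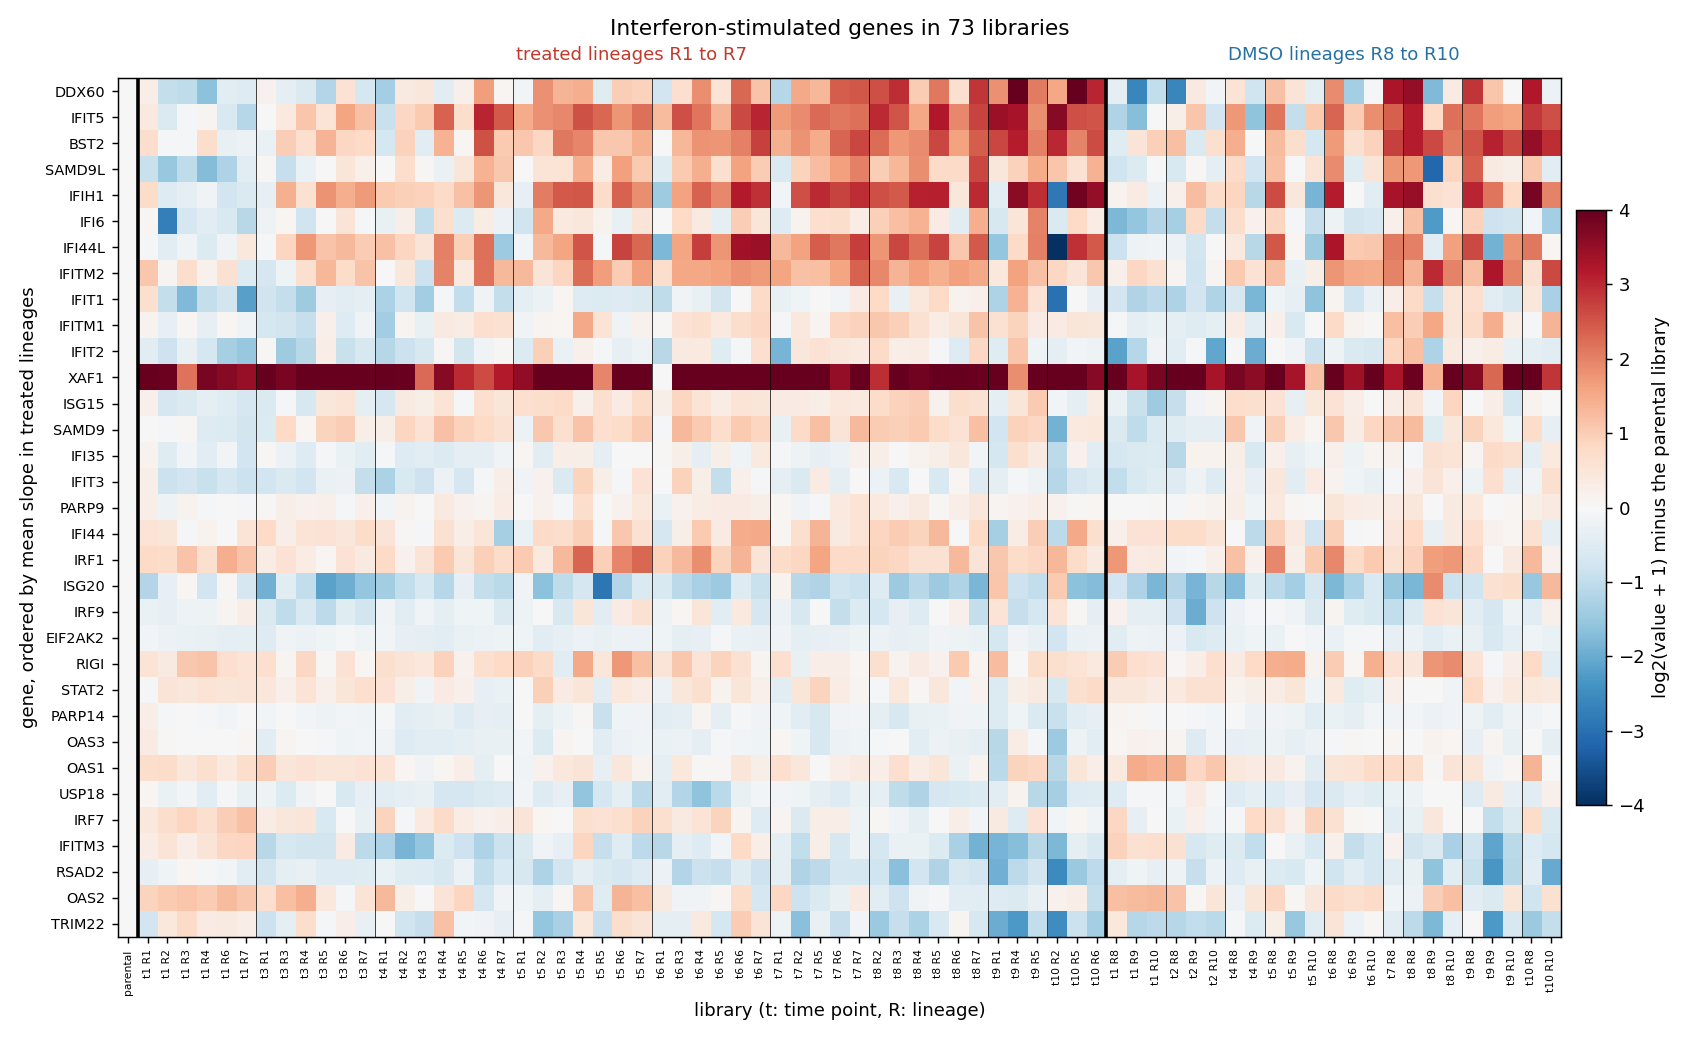
Each row is 1 of the 33 kept members and each column 1 of 73 libraries, grouped by arm and time point. Colour is the difference in log2(value + 1) from the parental library, limited to between -4 and 4. The top rows (DDX60, IFIT5, BST2) darken toward late time points in both arms, the bottom rows (OAS2, TRIM22) turn blue, and XAF1 is dark nearly throughout because the parental library sits at its lowest value for that gene.

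Over the 10 time points, members of the interferon list moved in both directions in treated lineages. A slope in log2 units per time point was fitted in each lineage, and the 7 slopes were tested against 0 with limma. Of 33 members 9 rose, against 16.5% of all 14565 genes, and 7 fell, against 22.5%. Together 16 passed (48.5%), against 39% of all genes, and the median slope was 0.021 for the members and -0.0076 for all genes. All 7 lineages shared a sign for 10 members (30.3%) and for 25.6% of all genes. All 13 mitochondrially encoded mRNAs, used as a sign of RNA quality and handling, fell over the same time points (slopes -0.17 to -0.057), and their summed value was 47820 to 486800. Of 6 fibroblast and muscle markers 3 rose, with sums of 14220 to 63380 in treated and 11420 to 29590 in DMSO libraries. Of 9 Ewing sarcoma markers 4 fell (LIPI, BCL11B, STEAP1 and PRKCB, slopes -0.098 to -0.028). Of 2 epithelial markers KRT18 rose (0.41, adjusted p = 0.022). In DMSO lineages the slopes were -0.19 for LIPI, -0.098 for BCL11B, -0.15 for STEAP1, 0.025 for PRKCB and 0.59 for KRT18. Of the fibroblast and muscle markers that rose, ACTA2 had 0.35 there, COL1A1 0.22 and DES -0.042. None of these DMSO slopes passed the threshold. The part of any of these lists in the members' slopes was not tested.

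Among the antiviral effectors, BST2 (tetherin), a membrane protein that holds budding virus on the cell, gave the most uniform rise. Its value in treated libraries was 11.7, 14.2 and 24.5 (lowest, median and highest of 6) at time point 1 and 46.7, 64.2 and 99.3 (of 6) at time point 8. At time point 10 it was 126.3 in R2, 60.9 in R5 and 94.1 in R6. Time points 1 and 8 did not overlap, and the parental library had 14.6. The slope was 0.30 ± 0.028 (SE, n = 7 lineages; limma, Benjamini-Hochberg adjusted p = 0.00067), positive in 7 of 7 lineages (0.22 to 0.44). SAMD9L, a large cytoplasmic protein that restrains growth and viral translation, went from 6.06, 9.85 and 16.4 at time point 1 to 39, 52.3 and 149.7 at time point 8. These values did not overlap either, and the slope was 0.27 ± 0.044 (adjusted p = 0.0033). Its neighbour and relative SAMD9 had a slope of 0.054 ± 0.046 (adjusted p = 0.37).

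The IFIT family binds viral RNA through its cap or triphosphate end. IFIT5, which prefers triphosphate ends, went from 3.91, 7.93 and 13.4 (lowest, median and highest of 6) at time point 1 to 30.6, 65.3 and 98.6 (of 6) at time point 8. At time point 10 it was 133.7 in R2, 64.3 in R5 and 61.5 in R6. No library of time points 8 and 10 came down to those of time point 1, and the slope was 0.37 ± 0.036 (adjusted p = 0.000713, positive in 7 of 7 lineages). The other members of the family did not pass: IFIT1 had a slope of 0.13 ± 0.061 (adjusted p = 0.13), IFIT2 0.12 ± 0.046 (adjusted p = 0.061) and IFIT3 0.041 ± 0.022 (adjusted p = 0.17). These 4 genes lie in 1 cluster on chromosome 10. Treated medians of IFIT1 at time points 1 and 3 to 10 were in order 16.8, 21.4, 16.8, 23.1, 28.5, 30.7, 42.2, 49.7 and 26.4. DMSO medians at time points 1, 2 and 4 to 10 were 15.6, 14.01, 14.9, 26.3, 27.4, 40.6, 47.3, 24.5 and 29.4, and the parental library had 33.3. IFIT1 was thus lower at time point 1 than in the parental library in both arms by the median. It passed the parental value at time points 8 and 9 in treated libraries and 7 and 8 in DMSO libraries. The DMSO value at time point 7 is 1 library, that of R8. IFIT3 medians in the same order were 73.3, 81.4, 85.2, 145, 139, 100.4, 100.5, 113 and 81.0 in treated libraries. In DMSO libraries they were 85.4, 90.2, 127, 163, 116, 126, 151, 112 and 159.9, with 129.8 in the parental library. Its highest treated medians were at time points 5 and 6.

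Of the sensors of RNA, DDX60, a helicase that acts with RIGI, had the steepest slope of the list, 0.44 ± 0.066 (adjusted p = 0.0026, positive in 7 of 7 lineages). It was a low gene, at 1.01, 2.81 and 6.45 at time point 1, and at 8.81, 30.7 and 46.9 at time point 8. At time point 10 it was 17.4 in R2, 108.6 in R5 and 50.5 in R6, all above time point 1. IFIH1, the sensor MDA5, rose by 0.26 ± 0.084 (adjusted p = 0.035), in 5 of 7 lineages, with slopes from -0.16 to 0.52. RIGI itself did not pass (-0.024 ± 0.030, adjusted p = 0.54), nor did EIF2AK2 (-0.012 ± 0.0091, adjusted p = 0.32). The 3 oligoadenylate synthetases had negative slopes, and OAS2 passed. OAS2 was 51.5, 59.1 and 67.9 at time point 1 and 15.1, 19.8 and 26.2 at time point 8, without overlap, and its slope was -0.18 ± 0.028 (adjusted p = 0.0032, negative in 7 of 7 lineages). The parental library had 27.5, so OAS2 at time point 1 was above it in all 6 treated libraries and in all 3 DMSO libraries (65.1 to 69.8). OAS1 had a slope of -0.049 ± 0.031 (adjusted p = 0.23) and OAS3 -0.044 ± 0.016 (adjusted p = 0.051).

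**Figure D2:**
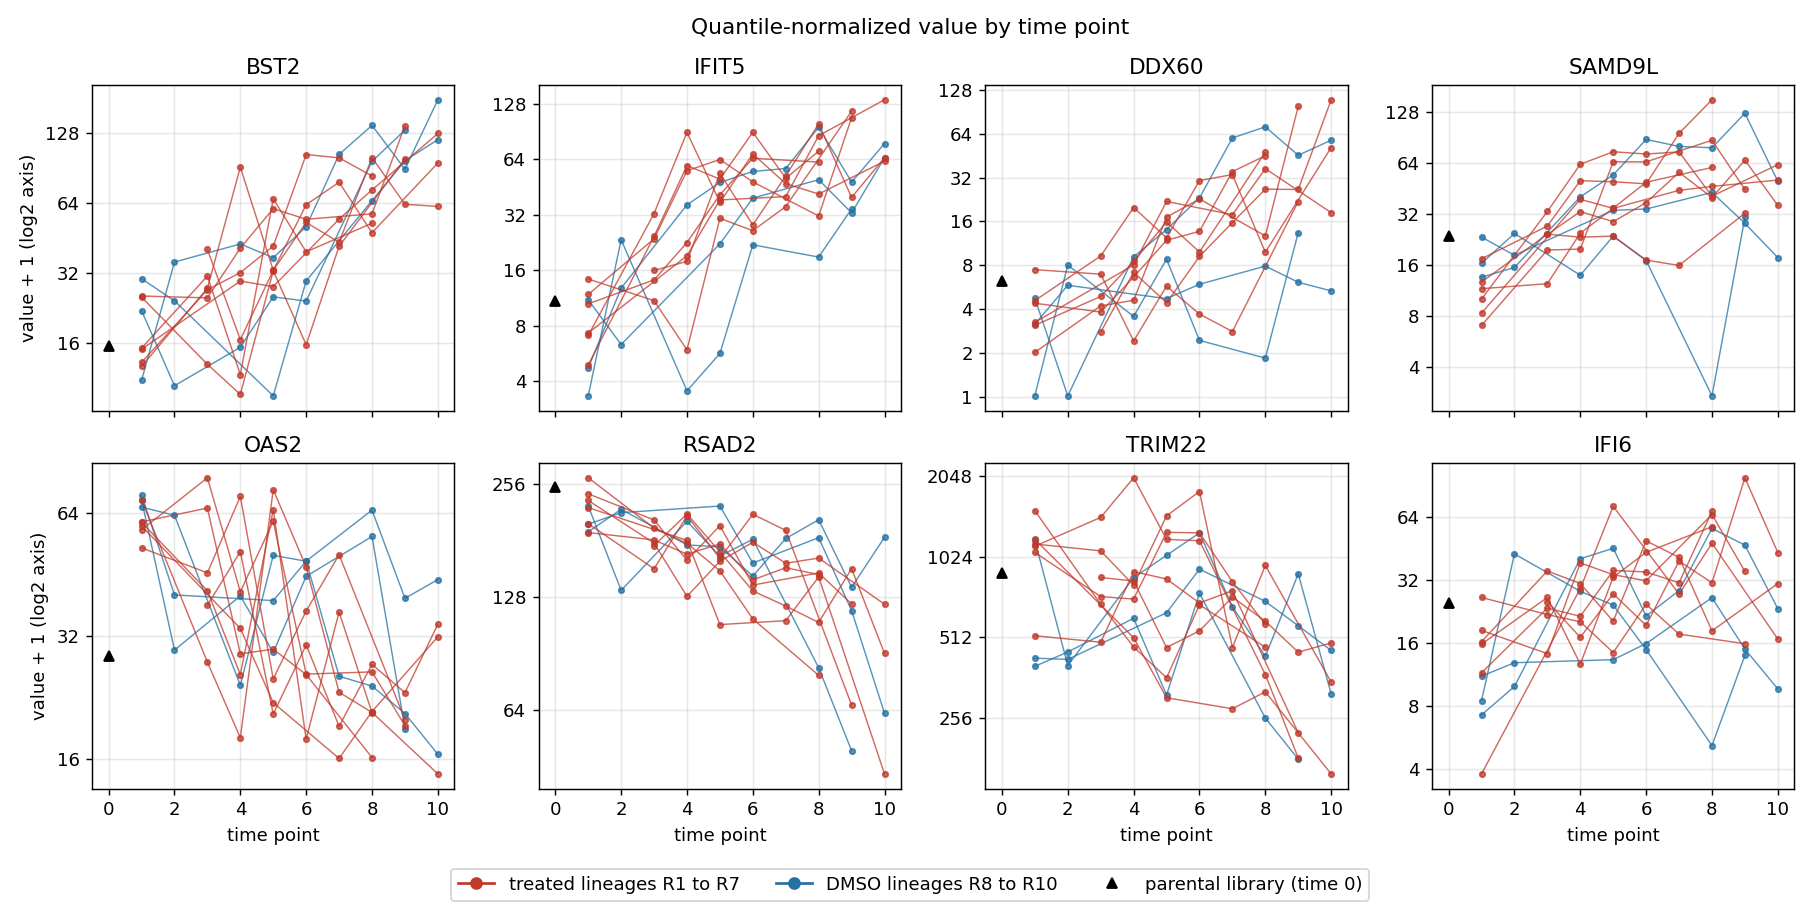
Each panel plots 1 gene, with the time point on the horizontal axis and the quantile-normalized value plus 1 on a log2 axis. Lines join the libraries of 1 lineage, and the triangle is the parental library at time 0. BST2, IFIT5 and DDX60 climb in most lineages of both arms, OAS2 and RSAD2 descend, and the arms overlap in every panel.

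The IFITM proteins, which block the fusion of viruses with cell membranes, split. IFITM1 rose by 0.12 ± 0.023 (adjusted p = 0.0054, 7 of 7 lineages) and IFITM2 by 0.13 ± 0.038 (adjusted p = 0.024, 6 of 7). IFITM3 fell, with a slope of -0.12 ± 0.035 (adjusted p = 0.023, 6 of 7). IFITM3 medians at time points 1 and 3 to 10 were 27.0, 10.7, 7.26, 12.7, 15.2, 13.8, 11.6, 4.98 and 11.6 in treated libraries. At time points 1, 2 and 4 to 10 they were 30.1, 12.96, 10.5, 15.0, 10.8, 20.7, 10.7, 8.07 and 11.7 in DMSO libraries, with 18.3 in the parental library. The highest median was that of time point 1 in both arms, with no steady fall after time point 3. RSAD2 (viperin), which makes a chain terminator of viral RNA synthesis, fell from 189.5, 226.1 and 265.7 at time point 1 to 78.3, 145.1 and 161.9 at time point 8. Those ranges did not overlap, and the slope was -0.14 ± 0.025 (adjusted p = 0.0042, 7 of 7). TRIM22, an antiviral ubiquitin ligase, was 518, 1132 and 1524 at time point 1 and 319.5, 521 and 951 at time point 8. Its ranges overlapped, and the slope was -0.18 ± 0.034 (adjusted p = 0.0054, 7 of 7).

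ISG15, a ubiquitin-like tag put on proteins during the response, rose by 0.099 ± 0.032 (adjusted p = 0.036, 6 of 7 lineages). Its treated medians at time points 1 and 3 to 10 were 37.1, 46.4, 69.3, 86.8, 77.3, 68.4, 89.0, 75.2 and 49.7. DMSO medians at time points 1, 2 and 4 to 10 were 28.9, 48.4, 87.3, 73.3, 64.6, 66.8, 78.2, 55.0 and 56.6, and the parental library had 54.0. In both arms ISG15 was lowest at time point 1, higher in the middle of the course and lower again at time point 10. USP18, the enzyme that removes ISG15 and dampens the receptor, fell by 0.054 on the log2 scale per time point (SE 0.018, adjusted p = 0.043, 7 of 7 lineages). IFI6, a mitochondrial and endoplasmic reticulum protein that opposes cell death, rose by 0.17 ± 0.046 (adjusted p = 0.018, 6 of 7). Its treated medians in the same order were 15.0, 23.3, 20.4, 32.0, 32.3, 30.0, 51.6, 34.1 and 29.7. DMSO medians were 7.46, 11.9, 33.3, 23.2, 14.9, 27.4, 25.3, 13.9 and 15.5, with 23.9 in the parental library. IFI6 was below the parental value at time point 1 by the median of either arm, and above it from time point 5 in treated libraries. PARP14 fell slightly, by 0.041 per time point (SE 0.014, adjusted p = 0.042), in 7 of 7 lineages.

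Of the 4 transcription factors of the pathway 1 passed. IRF7, which amplifies interferon production, fell by 0.083 per time point (SE 0.026, adjusted p = 0.033), in 6 of 7 lineages. STAT2 (-0.031 ± 0.023, adjusted p = 0.30), IRF9 (0.0095 ± 0.029, adjusted p = 0.81) and IRF1 (0.019 ± 0.021, adjusted p = 0.49) did not pass. STAT2 medians at time points 1 and 3 to 10 were 1877, 1853, 1533, 1660, 1675, 1645, 1421, 1574 and 2061 in treated libraries. At time points 1, 2 and 4 to 10 they were 1813, 2016, 1522, 1640, 1035, 1525, 1331, 1734 and 1762 in DMSO libraries, with 1330 in the parental library. Single STAT2 libraries ran from 861 to 2590, and all medians but that of DMSO at time point 6 lay above the parental value. IRF9 medians, in the same order, were 43.8, 31.6, 44.6, 49.8, 48.6, 34.2, 37.7, 30.9 and 52.9 in treated libraries. DMSO libraries gave 38.2, 28.3, 45.5, 45.7, 35.8, 24.9, 70.7, 37.2 and 48.1, and the parental library 50.7. IRF9 had no steady direction in either arm. IRF1, which also answers to interferon-gamma, had treated medians of 119, 76.1, 102, 151, 134, 103, 100.1, 109 and 101. DMSO medians were 78.3, 56.5, 102, 125, 125, 92.8, 194, 77.9 and 109, and the parental library had 60.3. Nearly all medians of IRF1 lay above the parental value. MX1, too low to be tested, had treated medians of 2.82, 3.94, 6.104, 6.32, 8.24, 6.78, 11.2, 8.24 and 7.16, and 5.79 in the parental library. DMSO medians of MX1 were 0.026, 2.74, 6.81, 5.30, 5.30, 5.63, 1.71, 3.60 and 6.49. The first of these lies at the lowest value of its library.

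The number of called slopes depended on the early libraries. Without time point 1 only BST2 (0.32, adjusted p = 0.029) and DDX60 (0.47, adjusted p = 0.036) passed, among 233 genes in all. IFIT5 then had 0.32 (adjusted p = 0.051) and OAS2 -0.17 (adjusted p = 0.062). Leaving out R3, R4, R6 or R7 left 9, 9, 10 and 8 members. Over the 7 fits that left out a lineage, 8 to 16 members passed and 3805 to 6801 of all 14565 genes, so the calls moved in all genes too. The 8 members BST2, DDX60, IFIT5, IFITM1, OAS2, RSAD2, SAMD9L and TRIM22 passed in each of the 7 fits that left out a lineage. USP18 passed in none of these fits, PARP14 in 1, ISG15, IRF7 and IFIH1 in 2 each, IFITM2 and IFITM3 in 3 each and IFI6 in 5. IFI44L, a member of unknown biochemical role, had a slope of 0.16 ± 0.080 (adjusted p = 0.13). The late libraries of R1 (time point 9) and R2 (time point 10) were nearest to each other (r = 0.94). Without this pair 19 members passed, among them IFI44L (0.26, adjusted p = 0.0041). The share of all genes in that fit is not given here, so the count is not a result about the members.

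**Figure D3:**
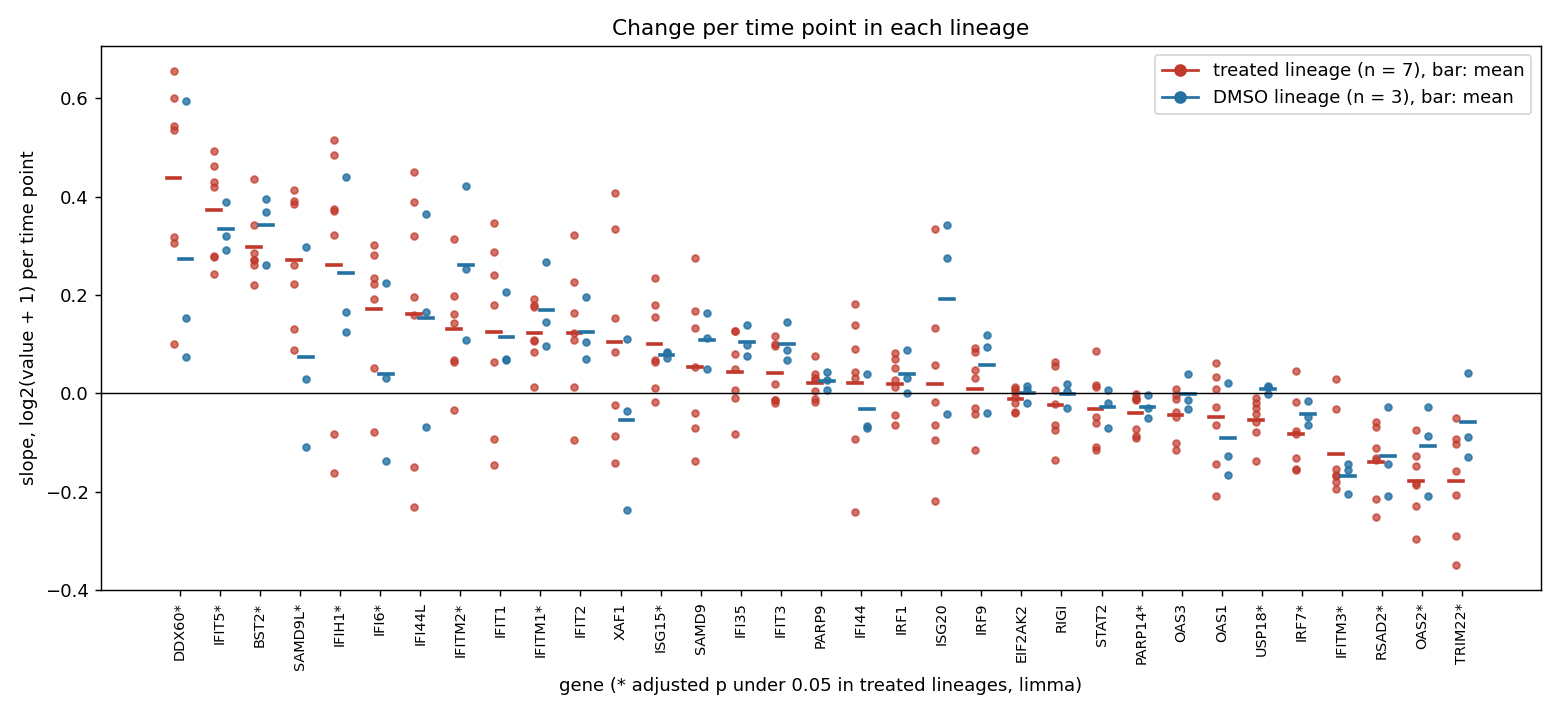
For each of 33 members the points are slopes in log2(value + 1) per time point, red for 7 treated and blue for 3 DMSO lineages, with bars at the means and stars at members past the threshold in treated lineages. DDX60, IFIT5 and BST2 lie above 0 in all 10 lineages, RSAD2 and OAS2 below 0 in all 10, and the slopes of the arms overlap for each gene but USP18.

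The same slopes were fitted in DMSO lineages. Their 3 slopes passed for 0 of 33 members and for 0% of all genes with limma, while 12 members, and 26.5% of all genes, had an unadjusted p under 0.05. BST2 at time point 1 was 10.09, 21.1 and 29.3 (R8, R9 and R10) and 136.9, 95.7 and 64.6 at time point 8, without overlap. Its slope in DMSO was 0.34 ± 0.040 (SE, n = 3; adjusted p = 0.082). IFIT5 in the same order was 3.73, 2.34 and 10.09 at time point 1 and 94.5, 17.9 and 48.6 at time point 8, with a slope of 0.33 ± 0.038 (adjusted p = 0.079). IFITM1 had 0.17 ± 0.040 (adjusted p = 0.13) and IFITM3 -0.17 ± 0.041 (adjusted p = 0.13). With the spread pooled over both arms, 5 members passed in DMSO lineages, against 12.3% of all genes: BST2, IFIT5, IFITM1 and IFITM2 rose (background 6.11%) and IFITM3 fell (6.14%). Without R8 6 members passed (BST2, IFIT5, IFITM2, ISG20, OAS1 and RSAD2; 18.2%, against 8.58% of all genes), and without R9 only IFIT5. All 10 lineages shared a sign for 7 members (21.2%), namely BST2, DDX60, IFIT5, IFITM1, OAS2, RSAD2 and PARP14, and for 18.6% of all genes. All 13 mitochondrially encoded mRNAs had negative DMSO slopes at an unadjusted p under 0.05, and their part was not tested.

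The difference of the slopes between arms was tested directly and passed for 0 of 33 members and 0% of all genes (limma; 0 members and 9.43% of all genes at an unadjusted p under 0.05). For BST2 the treated slope minus the DMSO slope was -0.044 ± 0.050 (SE; adjusted p = 0.80), and for IFIT5 0.039 ± 0.062 (adjusted p = 0.86). The smallest p-values were those of SAMD9L (0.20 ± 0.094, adjusted p = 0.54), USP18 (-0.063 ± 0.031, adjusted p = 0.54), TRIM22 (-0.12 ± 0.062, adjusted p = 0.56) and IFITM2 (-0.13 ± 0.077, adjusted p = 0.60). SAMD9L rose in 7 of 7 treated lineages, and had slopes of 0.30 in R8, -0.11 in R9 and 0.029 in R10. A missed threshold with 3 DMSO lineages does not show that the arms moved alike.

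Levels over all time points were then compared between arms, each lineage given 1 value adjusted for time point. No member differed by limma (0 of 33, 0% of all genes; 8 members and 13.5% of all genes at an unadjusted p under 0.05), and the median difference, treated minus DMSO, was 0.052 for the members and -0.0036 for all genes. The columns of the treated arm share 1 total and those of the DMSO and parental libraries another, and repeating the quantile normalization over all columns left the count at 0. IFI6 was 4.77 ± 0.21 (log2, SD, n = 7) in the treated arm and 4.15 ± 0.45 (SD, n = 3) under DMSO. R8, at 4.66, lay within the treated range of 4.35 to 4.94, and the difference was 0.62 ± 0.19 (SE, adjusted p = 0.29). OAS1 had a difference of -0.25 ± 0.080 (adjusted p = 0.29), with treated values of 8.36 to 8.69 and DMSO values of 8.68 to 8.94. Treated OAS1 medians at time points 1 and 3 to 10 were 464, 422, 309, 330, 322, 378, 358, 523 and 349. DMSO medians at time points 1, 2 and 4 to 10 were 761, 619, 382, 325, 431, 496, 423, 306 and 520.2, with 293 in the parental library. DMSO medians of OAS1 were higher at time points 1, 4, 6, 7, 8 and 10 and lower at 5 and 9. That of time point 7 is 1 library (R8), and those of time points 4 and 10 rest on 2 each.

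IFIT5 was 5.18 ± 0.28 (SD, n = 7) in treated lineages, and 5.09 in R8, 3.60 in R9 and 4.52 in R10, a difference of 0.78 ± 0.27 (SE, adjusted p = 0.31). OAS3 was 10.27 to 10.58 in treated and 10.61 to 10.66 in DMSO lineages (difference -0.16 ± 0.056, adjusted p = 0.31). OAS3 and IFIT3 were the members whose arms did not overlap (2 of 33, 6.06%, against 3.01% of all genes), with none called. DDX60 was 2.67 to 4.13 in treated lineages, 3.99 in R8, 2.11 in R9 and 2.23 in R10. In DDX60, IFI6 and IFIT5 the R8 culture stood with the treated lineages and R9 and R10 lower. Without R8 these 3 members passed: DDX60 at 1.72 (adjusted p = 0.012), IFI6 at 0.99 (adjusted p = 0.0088) and IFIT5 at 1.21 (adjusted p = 0.019), which is 9.09% of members against 9.32% of all genes. With all 3 DMSO lineages none did. The nearest library to R8 at time point 1 was a treated one, and its part in these levels was not tested.

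**Figure D4:**
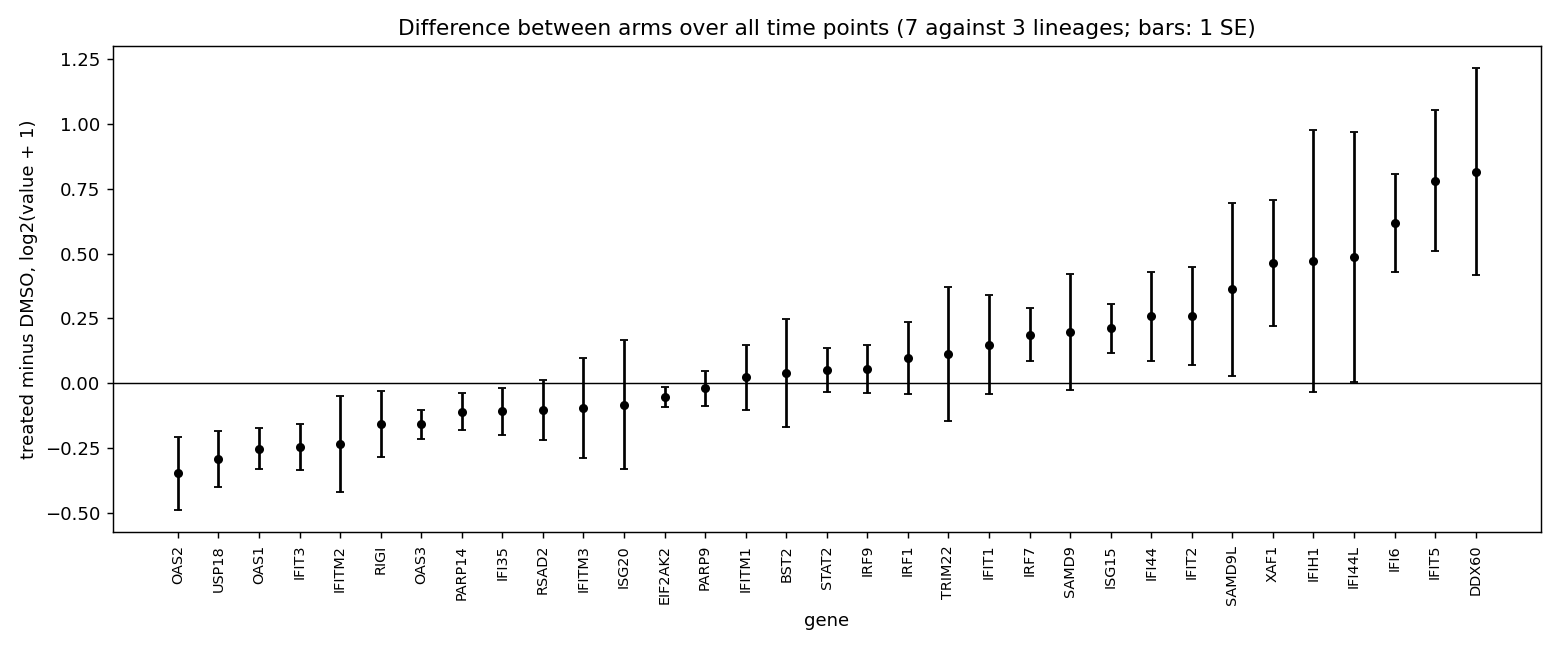
Points are the difference between arms over all time points, treated minus DMSO in log2(value + 1), for 33 members in order of size, with bars of 1 SE (7 against 3 lineages). DDX60, IFIT5 and IFI6 have the highest estimates and OAS2 the lowest, and none passed the adjusted threshold.

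At single time points no member passed at 1, 4, 5, 6, 8, 9 or 10 with limma, where 0% of all genes passed except at time points 9 (1.33%, 0.542% higher and 0.79% lower) and 10 (0.0618%, 0.0343% higher and 0.0275% lower). Members at an unadjusted p under 0.05 numbered 1, 0, 3, 0, 6, 1 and 5 of 33 at these time points. The shares of all genes were 2.58%, 3.09%, 1.35% and 3.9% at time points 1, 4, 5 and 6, and 14.9% and 11.8% at 9 and 10. At time point 8 it was 1475 of 14565 genes. At time points 1, 4, 5 and 6 the smallest p-values all had an adjusted p of 1. They belonged to IRF7 (0.64 ± 0.28 SE, treated minus DMSO), TRIM22 (0.83 ± 0.48), OAS1 (-0.49 ± 0.29) and ISG15 (0.43 ± 0.27) at time point 1. At time point 4 they were those of IFIT5 (1.30 ± 0.67), PARP14 (-0.23 ± 0.15), ISG15 (-0.46 ± 0.31) and IFIT3 (-0.43 ± 0.33). IFIT5 (1.27 ± 0.58), IFITM2 (0.95 ± 0.45), BST2 (0.95 ± 0.47) and EIF2AK2 (-0.16 ± 0.098) came first at time point 5. At time point 6 STAT2 (0.43 ± 0.24), OAS2 (-0.70 ± 0.39), IFI6 (0.91 ± 0.55) and OAS1 (-0.46 ± 0.29) did. Of the first 4, IFIT5 had the only positive estimate at time point 4 and the largest at time point 5, with no call at either. At time point 9 IRF7 (0.67 ± 0.33, adjusted p = 0.32), IFITM2 (-1.07 ± 0.54, adjusted p = 0.34), ISG15 (0.52 ± 0.32, adjusted p = 0.47) and IFIT5 (1.07 ± 0.69, adjusted p = 0.50) came first. RIGI at time point 8 was 55.8 in R9 and 60.8 in R10 but 21.8 in R8, and 16.9 to 33.1 in the 6 treated libraries. Its difference was -0.96 ± 0.33 (SE, adjusted p = 0.37). USP18 at time point 8 was 126.2, 146.7 and 142.9 in R8, R9 and R10 and 62.6 to 112 in treated libraries, without overlap (difference -0.67 ± 0.25, adjusted p = 0.39). OAS2 (-1.04 ± 0.39) and SAMD9L (1.58 ± 0.59) followed, both with an adjusted p of 0.39. IFIT3 at time point 10 was 117 and 202 in R8 and R10, and 58.8, 81.0 and 89.2 in R2, R5 and R6 (difference -1.03 ± 0.37, adjusted p = 0.24). PARP14 at time point 10 was 1288 and 1363 in DMSO libraries, and 764, 1053 and 1123 in treated ones (difference -0.45 ± 0.17, adjusted p = 0.24). OAS3 (-0.53 ± 0.23, adjusted p = 0.33) and OAS1 (-0.79 ± 0.37, adjusted p = 0.39) followed. Without R2 these differences were -0.15 for OAS3, -0.30 for OAS1 and -0.29 for PARP14. Without R8 OAS1 had -0.10 and OAS3 -0.35, and without R10 IFIT3 had -0.64 and OAS1 -1.48, each with 1 DMSO library left and a spread taken from the other groups. Without R8, DDX60 (2.73), SAMD9L (2.54), OAS2 (-1.48) and RIGI (-1.42) passed at time point 8, 12.1% of members against 3.56% of all genes.

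The last course before regrowth, VDC or EC, was compared within the 49 treated libraries with lineage as a block and a linear time term. No member passed (0 of 33, 0% of all genes; limma, 0 members and 14.5% of all genes at an unadjusted p under 0.05), and the median difference, after VDC minus after EC, was 0.043 for the members and 0.00092 for all genes. The smallest p-values were those of USP18 (0.21 ± 0.12 SE, adjusted p = 0.40), TRIM22 (-0.32 ± 0.18, adjusted p = 0.41), OAS1 (0.22 ± 0.13, adjusted p = 0.42) and BST2 (0.29 ± 0.19, adjusted p = 0.47). TRIM22 and BST2 changed sign when the time term was left out. Against the odd and even time points of DMSO lineages the difference passed for 0 members and 0% of all genes. With limma 1 member, and 4.7% of all genes, had an unadjusted p under 0.05. That member was OAS1 (0.49 ± 0.23, adjusted p = 0.91). SAMD9L (-0.62 ± 0.38), USP18 (0.29 ± 0.18) and ISG15 (0.30 ± 0.25) followed, with the same adjusted p.

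Levels were also compared among cultures of the same arm. In treated lineages the F test over 7 lineages passed for 0 of 33 members and 0.611% of all genes, although libraries of 1 culture are repeated samples and make such p-values too small. Adjusted values of SAMD9L ran from 4.36 in R1 to 5.71 in R7 (adjusted p = 0.13). SAMD9 ran from 5.67 in R1 to 6.66 in R5 (adjusted p = 0.18) and TRIM22 from 8.52 in R2 to 9.67 in R6 (adjusted p = 0.23). SAMD9 passed without time point 1 (adjusted p = 0.041). PARP14 spanned only 10.01 to 10.35 (adjusted p = 0.28). In DMSO lineages 0 members and 0.288% of all genes passed. Values of IFIH1 for R8, R9 and R10 in turn were 6.33, 4.77 and 4.28 (adjusted p = 0.13). In that order SAMD9 had 6.71, 5.87 and 6.12 (adjusted p = 0.17), TRIM22 9.504, 8.496 and 9.263 (adjusted p = 0.17) and IFI44L 6.88, 4.96 and 5.86 (adjusted p = 0.21). R1 had the lowest treated value of IFIH1 (4.12), IFI44L (5.14), SAMD9, SAMD9L, DDX60 and IFIT5, and R8 the highest DMSO value of each.

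After the mean of each arm and time point was taken out, members varied together across the 72 libraries, which share lineages and a normalization. Over 528 member pairs the mean r was 0.14, against 0.0081 over all gene pairs, and 10.8% of member pairs lay over 0.5, against 3.6%. The highest were IFI44 with IFI44L (r = 0.86), which are neighbours on chromosome 1, then IFIH1 with SAMD9 (0.83), IFIH1 with IFI44 (0.82) and IFIH1 with IFI44L (0.81). DDX60 and SAMD9L had 0.72. Among the 3 treated libraries of time point 10, R2 lay far below the others in IFIH1 (1.38 against 196 and 247) and IFI44L (1.38 against 225 and 309). In SAMD9 it had 16.8 against 84.9 and 87.1. The part of this library in these correlations was not tested. ISG20, an exonuclease, ran against this group, at -0.62 with SAMD9 and -0.61 with IFIT1. The mean r with the other members was highest for IFI44L (0.32), IFIH1 (0.30) and SAMD9 (0.29), and was 0.17 for BST2, 0.15 for IFIT5, 0.0027 for OAS2 and -0.19 for ISG20. The mean log2 of the 33 members ran from 5.88 (R2 at time point 10) to 7.09 (R6 at time point 6), with 6.15 in the parental library. Treated medians of that mean were 6.17 at time point 1, 6.76 at 6 and 6.60 at 10, and DMSO medians 6.11, 6.45 and 6.60.

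**Figure D5:**
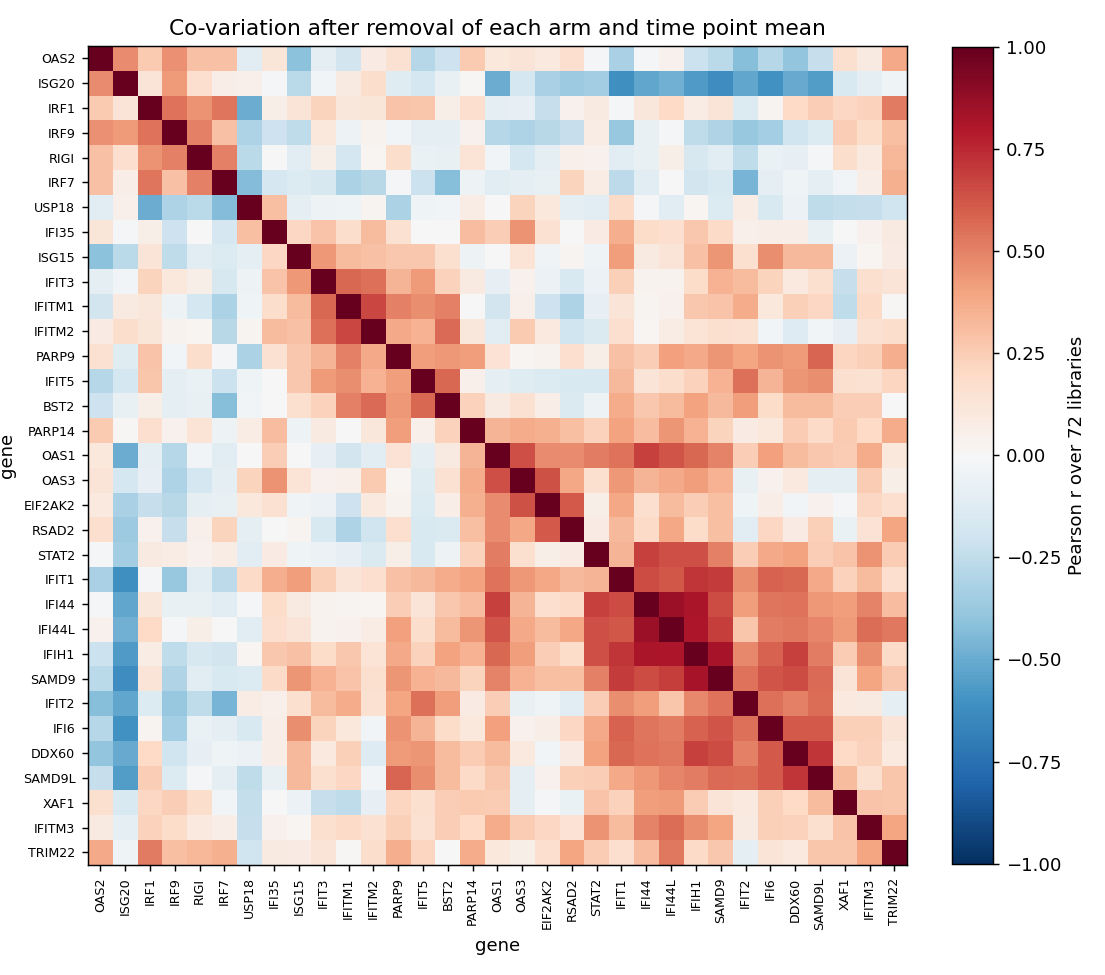
Each cell is the Pearson r of 2 members over 72 libraries after the mean of each arm and time point was taken out, red for positive and blue for negative, with genes ordered by clustering. A block of IFI44, IFI44L, IFIH1, SAMD9, IFIT1, IFI6, DDX60 and SAMD9L is red, and ISG20 is blue against it.

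Other genes of the pathway, 58 on a list that also held the ligands, were read in the same treated slopes. None of the 10 ligands reached the minimum mean. Of 40 kept genes 12 rose and 7 fell (47.5%, against 39% of all genes), and their median slope was -0.0045. Among 11 receptors and kinases, the lambda receptor chain IFNLR1 rose by 0.24 ± 0.063 (adjusted p = 0.016) and IFNGR2 rose. The alpha receptor chains IFNAR2 (-0.11 ± 0.021, adjusted p = 0.0049) and IFNAR1 (-0.032 ± 0.010, adjusted p = 0.035) and the kinase TYK2 (-0.057 ± 0.011, adjusted p = 0.0064) fell. Of 12 sensors and adaptors upstream of interferon 2 rose and 3 fell. SAMHD1, which depletes nucleotides, rose by 0.061 ± 0.015 (adjusted p = 0.013) and IFI16, a DNA sensor, by 0.049 ± 0.011 (adjusted p = 0.0084). IKBKE, a kinase of the response to foreign nucleic acid, fell by 0.054 (SE 0.016, adjusted p = 0.026). DMSO slopes were 0.076 ± 0.034 for IFNLR1, -0.027 ± 0.036 for SAMHD1, -0.014 ± 0.017 for IFI16 and 0.055 ± 0.038 for IKBKE. The slopes of the arms did not differ at the threshold for these genes (limma, adjusted p 0.49 to 0.62). At time point 9 IFNLR1 was higher in treated libraries (2.53 ± 0.64, adjusted p = 0.032) and IKBKE lower (-0.92 ± 0.21, adjusted p = 0.019), where 1.33% of all genes passed. Of 7 negative regulators only SOCS3 rose (0.26 ± 0.069, adjusted p = 0.017).

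Of 10 kept genes that answer mainly to interferon-gamma 7 rose, against 16.5% of all genes, and 1 fell, against 22.5%. With the spread pooled over both arms 6 rose and 1 fell. NLRC5, the activator of MHC class I genes, rose by 0.29 ± 0.048 (adjusted p = 0.0036), the immunoproteasome subunit PSMB8 by 0.22 ± 0.071 (adjusted p = 0.034) and the guanylate-binding protein GBP3 by 0.20 ± 0.044 (adjusted p = 0.0096). IDO1, which degrades tryptophan, fell by 0.20 (SE 0.053, adjusted p = 0.016). In DMSO lineages NLRC5 had a slope of 0.37 ± 0.037 (adjusted p = 0.079), PSMB8 0.23 ± 0.045 (adjusted p = 0.12) and GBP3 0.16 ± 0.040 (adjusted p = 0.13).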

How the data were processed

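Extraction used a Qiagen AllPrep kit and STAR aligned the reads, per the labels' protocols. STAR, featureCounts and GRCh38 are named in the submitters' processing notes with no version. Per gene, the authors deposited a signal that had been quantile-normalized from counts, and how they normalized is not given in the sources used here. Groups came from the labels, and so did the lineage numbers that link libraries of the same culture. The mean correlation of deviations was 0.044 over 219 pairs of the same lineage and -0.0087 over 1050 other pairs. Such small values do not check the link.

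Values were analysed as log2(value + 1) with limma 3.58.1, its trend option on (R 4.3.3, with the package data.table at version 1.17.8), for 14565 genes whose mean reached 10. Calls used a Benjamini-Hochberg adjusted p under 0.05 over all of them. Lineage values over all time points were adjusted for time point by least squares, slopes were fitted per lineage, single time points shared 1 fit of 72 libraries, and the last course was fitted with lineage as a block. Coordinates and exon lengths came from GENCODE v29, and promoter windows from RefSeq (GRCh38.p14). Python 3.11.15, pandas 2.3.3, numpy 2.4.6 and matplotlib 3.10.9 were used for annotation and figures. The functions were checked on simulated data.

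The members and the lists were chosen with earlier results of these data known. Genes were named by a rule: 10 members in every group, and in each comparison those past the threshold (up to 10, by size) and otherwise the 4 of smallest p. Other members past the threshold were named too, after their values were seen, and so were members that fell out of a family or differed by lineage. Alternatives covered the pseudocount, the filter, the normalization, libraries and time points left out, and the treatment of lineage. Some other genes of the pathway are not reported here.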

Additional observations from a re-analysis of the deposited data

Results flagged for a closer look

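For some of the members the highest or lowest value of a group was set against the gap to its nearest neighbour. A group was the 6 treated libraries of time point 1 or 8, or the adjusted levels or slopes of the 7 treated lineages. Over 66 groups 5 values stood out, and no DMSO group was examined. Chance alone would mark about 1 in 20 groups if values were normal and groups independent, but groups here share libraries. All 5 belong to lineage R1, the treated lineage whose library at time point 1 was nearest to the parental one. Those at time point 1 come from that 1 library, so they are not separate results. At time point 1 ISG15 was 62.2 in R1 and next 42.1 among the 6 treated libraries, IFIT1 was 52.5 and next 19.4, and IFIT3 was 154.0 and next 79.7. STAT2 was 1290 in R1 at that time point, below the next at 1833, and the parental library had 1330. Over all time points the adjusted STAT2 value of R1 was 10.36 (log2) and the next lowest lineage had 10.66.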

How the results depend on the processing

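Treated slopes moved most: 8 members passed without the filter on low values, 2 without time point 1 and 2 without time points 1 to 3 (added after seeing the data). Without time point 1 the count fell over all genes too, as given above. The shares of all genes in the other fits are not given here, so these counts are not a result about the members. When 1 lineage was left out 8 to 16 members passed, and 3805 to 6801 of all genes. DMSO slopes gave 0 to 6 members when 1 lineage was left out and 5 with the spread pooled over both arms (added after seeing the data). Among treated lineages 1 member, SAMD9, passed without time point 1. Leaving out 1 lineage gave 0 to 3 members over all time points and 0 to 4 at time point 8. All other alternatives, including a pseudocount of 5, quantile normalization repeated over all columns, libraries left out and lineage as a random effect, kept the counts within 1.5 times. For the last course, the replicate block without the time term turned TRIM22 to 0.0894 and BST2 to -0.328, and the fits with and without the replicate block both called 0 members. The cause was not tested. Of the effects of named members 637 kept direction and side of the threshold, 30 lost a call, 11 gained one and 2 reversed. The comparison at time point 1 has no value without time point 1. The depth of the libraries is unknown, and 3 DMSO lineages limit every comparison between arms.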

Other observations

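XAF1, an antagonist of apoptosis inhibitors that interferon induces, sat at the lowest value of the parental library and of R1 at time point 6. It was above the lowest value in the other 71 libraries, where its value in DMSO libraries was 1.30 to 39.8. HERC5, the ligase that attaches ISG15, reached 50.7 in a treated library although its median over 73 libraries was 3.87. IFI27 was 17.4 in the parental library, and its medians were 8.91 in treated and 8.16 in DMSO libraries. R2 at time point 10 held the lowest values of all 73 libraries for IFIH1 (1.38), IFI44L (1.38), IFIT1 (3.32), SAMD9 (16.8), RSAD2 (42.3), OAS1 (135.3), TRIM22 (157), OAS3 (611), STAT2 (861) and EIF2AK2 (2194). It also held the highest value of IFIT5 (133.7).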
